A study of Rattus norvegicus with 2 samples.

Results

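The guide strands of the miR-17-92 cluster and its paralogs, miR-106b-25 and miR-106a-363, were compared between a rat carotid artery 10 days after balloon injury and an uninjured one. The 10 miRNAs were taken by name from the 350 rat miRNA features of a 1-colour array. They are rno-miR-17-5p, rno-miR-18a, rno-miR-19a, rno-miR-19b, rno-miR-20a and rno-miR-92a of miR-17-92, rno-miR-106b, rno-miR-93 and rno-miR-25 of miR-106b-25, and rno-miR-20b-5p of miR-106a-363; the prefix rno-, for rat, is left out below where the name recurs. Balloon injury is done with a catheter whose balloon scrapes off the inner lining of the artery and stretches its wall; in the following weeks smooth muscle cells multiply and the vessel thickens. Total RNA came from male Sprague-Dawley rats of about 250 g, with 1 array for the non-injured control and 1 array for the injured artery. The sources used here do not say how many rats gave each RNA, or whether both vessels came from the same rats. With 1 array per group there was no replicate error, so no test was possible and p-values are absent. Every difference is one between these 2 arrays.

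miR-17-92 is a single transcript that is cut into several mature miRNAs. It is best known from dividing cells and tumours, where the transcription factors Myc and E2f1 raise it. The miR-106b-25 cluster lies inside Mcm7, which encodes a subunit of the DNA replication helicase, and the miR-106a-363 cluster lies on the X chromosome. A miRNA finds its target mRNAs mainly through its seed, bases 2 to 8 from the 5′ end, so members with the same seed share many predicted targets. miR-106b, miR-93, miR-20a and miR-17 are known to repress the cell-cycle inhibitor Cdkn1a. Likewise miR-18a is known to repress the matrix gene Ctgf, and miR-92a the endothelial factors Klf2 and Itga5.

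The mature sequences show which members share a seed and how closely they resemble one another. All 10 members were matched to RefSeq mature miRNAs (build GRCr8), and they are given here 5′ to 3′ with the seed in capitals. The 4 seed groups are miR-17 (the first 5 sequences), miR-18 (the next), miR-19 (the next pair) and miR-92 (the last pair).
rno-miR-17-5p: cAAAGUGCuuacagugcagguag
rno-miR-20a: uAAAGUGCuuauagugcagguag
rno-miR-20b-5p: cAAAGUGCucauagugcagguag
rno-miR-93: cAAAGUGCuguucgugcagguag
rno-miR-106b: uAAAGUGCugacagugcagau
rno-miR-18a: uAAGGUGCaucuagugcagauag
rno-miR-19a: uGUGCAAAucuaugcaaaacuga
rno-miR-19b: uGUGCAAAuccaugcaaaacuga
rno-miR-92a: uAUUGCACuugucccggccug
rno-miR-25: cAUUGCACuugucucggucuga

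Outside the seed the members of a group differed by few bases. Counting positions from 1 at the 5′ end, miR-17-5p and miR-20a differed at 2 positions (C1U and C12U, miR-17-5p first), miR-17-5p and miR-20b-5p also at 2 (U10C and C12U), and miR-20a and miR-20b-5p at 2 (U1C and U10C). miR-17-5p and miR-93 differed at 4 positions, and miR-19a and miR-19b at 1 (U11C). miR-92a and miR-25 differed at 3 of the 21 positions they share (U1C, C14U and C18U). The probe sequences are not among the sources used here, so how far a probe separates such neighbours was not tested.

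In the rat, several of these mature miRNAs have more than 1 gene. The miR-17-92 members lie at chr15:98587861-98588622 on the plus strand, a span of 762 bases, in the order miR-17-5p, miR-18a, miR-19a, miR-20a, miR-19b, miR-92a. The miR-106b-25 members lie at chr12:22156652-22157123 on the minus strand, and 3 of 3 lie inside Mcm7 (chr12:22155921-22163320), in the order miR-106b, miR-93, miR-25. The X-linked cluster lies at chrX:137342788-137343637 on the minus strand and begins with a second copy of mature miR-17-5p, in the hairpin that RefSeq names Mir106a. It goes on with miR-20b-5p, second copies of miR-19b and miR-92a, and miR-363. An array signal for miR-17-5p, miR-19b or miR-92a therefore cannot be assigned to chromosome 15 or X, whereas miR-18a, miR-19a and miR-20a come from chromosome 15 alone. These are RefSeq positions, and the array files give none.

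Of the 350 miRNAs, 158 were measured on both arrays, meaning that the flag deposited with each signal, read here as detection, was 1. The log2 ratio used throughout is injured minus uninjured, after each array was scaled to its 75th percentile over these 158 miRNAs, which adds 0.09 to every ratio. Over the 158 the log2 ratios had a median of 0.14 and ran from -0.14 to 0.58 between the quartiles. Of them 20 were at least 2-fold higher in the injured artery (12.7%) and 6 at least 2-fold lower (3.80%). With the 6 detected control features aligned instead, the counts were 7 and 23, so the balance depended on the scaling. The wall's smooth muscle marker miR-143 was bright on both arrays, at 17014 uninjured and 13992 injured, and the endothelial marker miR-126 was detected on both, at 592 and 587.

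Of the 10 members, 7 were measured on both arrays, and each of the 7 had a positive log2 ratio, as did 65.2% of all 158 miRNAs. At least 2-fold higher were 5 of the 7, against 12.7% of all 158, and 0 of the 7 were at least 2-fold lower. Their median log2 ratio was 1.35, against 0.14 for all 158. A further 2 members, miR-18a and miR-19a, were measured only in the injured artery, as were 26 of the 350 miRNAs (7.43%), and miR-20b-5p was measured on neither array. The members were chosen with earlier results of these data known, so these counts are no independent evidence. The members measured on an array made up 0.379% of the summed signal of all measured miRNAs without injury and 0.838% after it. They were thus a small part of the signal on both arrays. In such bulk RNA, more cells that carry a miRNA and more of it per cell cannot be told apart. The median of the leukocyte marker miRNAs was 1.22 on the same scale, and their part in the values of the miR-17 clusters was not tested.

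**Figure D1:**
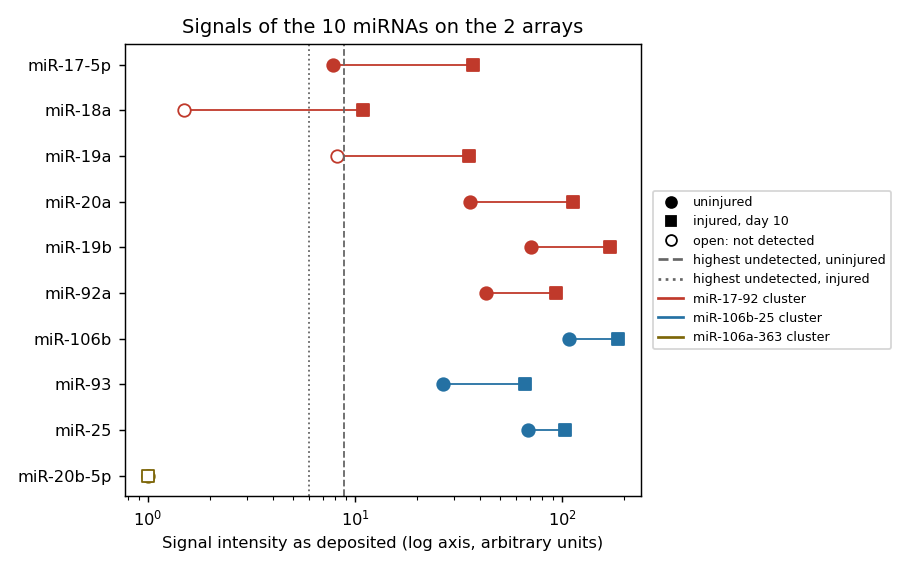
Deposited signal intensity (log axis, arbitrary units) of each of the 10 miRNAs without injury (circles) and after injury (squares), coloured by cluster, with open symbols for signals flagged as not detected. Vertical lines mark the highest signal of any undetected miRNA, 8.84 for the uninjured array and 5.98 for the injured one; miR-17-5p at 7.78 on the uninjured array lies under the first, and miR-20b-5p was listed at 1 on both arrays.

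In the miR-17-92 cluster, 4 of 6 members were measured on both arrays. All 4 were at least 2-fold higher in the injured artery, against 12.7% of all 158 miRNAs. rno-miR-17-5p, which gives the cluster its name, had a signal of 7.78 in the uninjured and 37.1 in the injured artery, 5.06-fold higher after scaling. Its uninjured signal was flagged as detected but lay under the highest undetected miRNA signal of that array (8.84) and under the highest of its 7 negative control features (8.19). Set against 8.84, miR-17-5p was at least 4.46-fold higher. With an offset of 10 units added to every signal before the log, its log2 ratio was 1.49 in place of 2.34, so its place among the highest ratios is not fixed by these data.

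rno-miR-20a, which shares the seed of miR-17-5p and comes only from chromosome 15, had signals of 35.9 and 112, 3.32-fold higher. Both lie above the undetected signals. Its log2 ratio was 0.61 below that of miR-17-5p, but with the offset of 10 the ratios were 1.50 for miR-20a and 1.49 for miR-17-5p. The order of these neighbours thus rests on the dim uninjured signal of miR-17-5p.

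rno-miR-19b had signals of 71.0 and 171, 2.55-fold higher. Its neighbour in sequence, rno-miR-19a, was flagged as undetected at 8.15 in the uninjured artery and detected at 35.4 after injury. It was at least 4.62-fold higher, where the injured signal is set against its own dim signal or, if that is lower, the dimmest detected signal of the uninjured array. Set against 8.84, the bound was 4.26-fold. The flag did not follow the signal alone, since miR-19a at 8.15 was flagged as undetected and miR-17-5p at 7.78 as detected on the same array.

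rno-miR-92a, known for its action in endothelium, had signals of 43.1 and 93.4, 2.30-fold higher. This was the lowest ratio among the cluster's members measured on both arrays. rno-miR-18a, the only member with its seed, was undetected at 1.49 in the uninjured artery and detected at 11.0 after injury, a bound of at least 3.39-fold. Set against 8.84 that bound was 1.32-fold, and no bound above 1 was left when the control features were aligned as well. Of these bounds, that of miR-18a thus moved most with the floor. Counting bounds, 7 of the 9 members measured on at least 1 array were at least 2-fold higher, against 17.2% of the 192 such miRNAs. With bounds set against the highest undetected signal it was 6 of 9, against 13.0%. Both counts were made with the scaling used throughout. miR-18a and miR-19a entered them only through the injured array, where they were brighter, so these counts are no evidence of a rise.

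In the miR-106b-25 cluster all 3 members were measured on both arrays. Of the 3, 1 was at least 2-fold higher, against 12.7% of all 158 miRNAs. rno-miR-93, of the miR-17 seed group, had signals of 26.5 and 66.0, 2.65-fold higher. rno-miR-106b, of the same seed group, had signals of 108 and 186, 1.83-fold higher. rno-miR-25 has the seed of miR-92a and is known to repress the cell-death gene Bcl2l11. Its signals were 68.3 and 103, 1.61-fold higher, the lowest ratio among the members measured on both arrays. The cluster's median log2 ratio was 0.87, against 1.54 for the 4 measured members of miR-17-92, a difference of 0.67 that uniform scaling cannot move. Other treatments did move this difference, to 0.55 with the offset of 10 and to 0.70 with quantile normalization. Over members above the highest undetected signal on both arrays the difference was 0.48. That filter leaves out the member with the dimmest uninjured signal of those 4. The clusters overlapped, because the ratio of miR-93 (1.41) lay above those of miR-19b (1.35) and miR-92a (1.20).

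**Figure D2:**
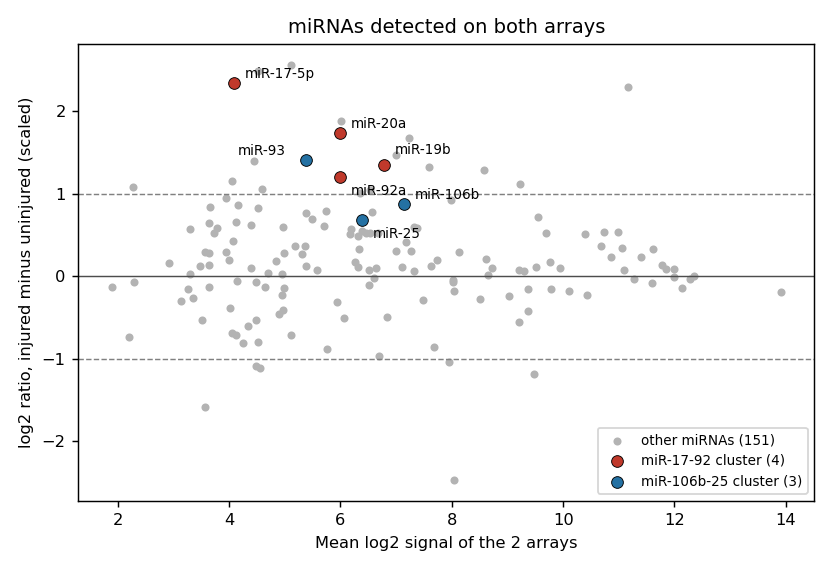
Log2 ratio (injured minus uninjured, scaled) against the mean log2 signal of the arrays for the 158 miRNAs detected on both, with the 4 measured members of miR-17-92 in red and the 3 of miR-106b-25 in blue; dashed lines mark 2-fold. All 7 lie above 0 and 5 lie above the 2-fold line, in the lower and middle range of signal.

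The third cluster, miR-106a-363, holds second copies of miR-17-5p, miR-19b and miR-92a, and 1 of the 10 members, miR-20b-5p, is found there alone. miR-20b-5p was listed at exactly 1 on both arrays. The value 1 was shared by 109 miRNAs on each array, and since other undetected signals lie under it, it reads as a substituted value and not as a measured level. Its cluster neighbour miR-363, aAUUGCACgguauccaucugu, was undetected at 5.23 and 2.58. miR-20b-5p and miR-363, found at the X-linked locus alone, were thus undetected on both arrays, while miR-20a, found at chromosome 15 alone, was 3.32-fold higher. Which locus gave the signals of miR-17-5p, miR-19b and miR-92a was not tested. miR-20b-5p differs from miR-17-5p and from miR-20a by 2 bases each in the sequences above. The feature of rno-miR-20b-5p was at 1 on the injured array, where miR-17-5p and miR-20a gave 37.1 and 112.

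**Figure D3:**
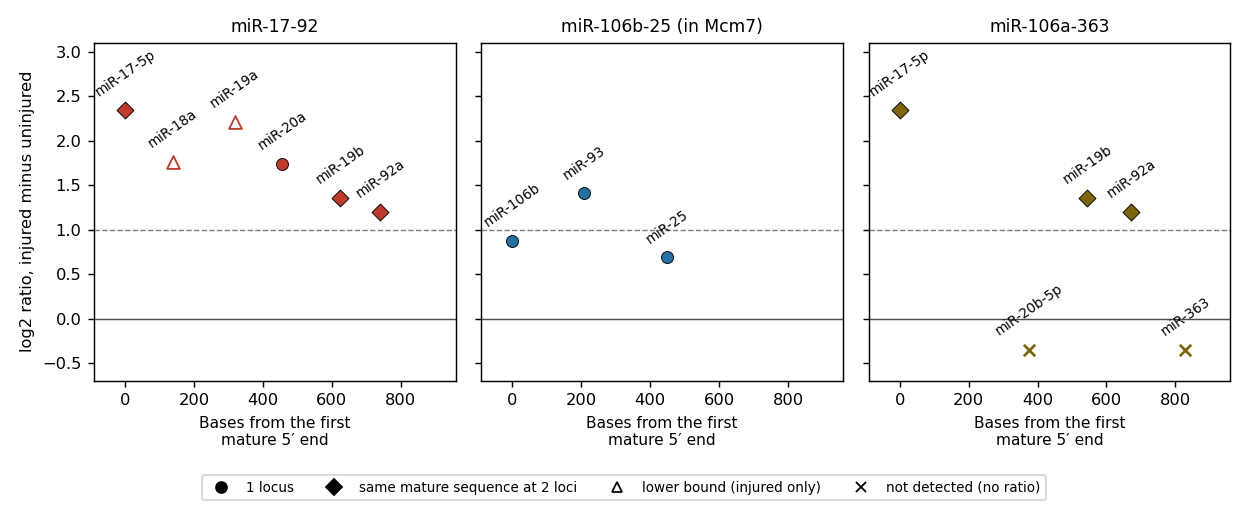
Log2 ratio of each guide strand against its distance in bases from the 5′ end of the first mature miRNA of its cluster, in the direction of transcription. Diamonds mark mature sequences found at 2 loci, drawn at each with the same value; triangles are lower bounds, and crosses, placed below 0 for display, mark miR-20b-5p and miR-363, which were undetected and have no ratio.

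Set in their order on chromosome 15, the members measured on both arrays had descending ratios from the 5′ to the 3′ end. Of these 4, only miR-20a comes from chromosome 15 alone; the signals of the other 3 may include their X-linked copies, so the values are not those of 1 transcript. The log2 ratio was 2.34 for miR-17-5p at the first position, 1.73 for miR-20a at 457 bases from it, 1.35 for miR-19b at 625 bases and 1.20 for miR-92a at 741 bases. With the offset of 10 the values were 1.49, 1.50, 1.24 and 1.05, so that miR-17-5p and miR-20a no longer stood apart. miR-18a and miR-19a, between miR-17-5p and miR-20a on the transcript, have lower bounds only and cannot be placed in this order. In miR-106b-25 no such order was seen, with log2 ratios of 0.87 for miR-106b, 1.41 for miR-93 at 207 bases and 0.69 for miR-25 at 450 bases. The order was noticed after the values were seen, and without replicates no 2 neighbours in it can be said to differ beyond error.

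By seed, the miR-17 group had a median log2 ratio of 1.57 over its 4 measured members, with a range from 0.87 to 2.34. Of the 4, 3 were at least 2-fold higher, against 12.7% of all 158 miRNAs. The miR-19 group had 1.35 from miR-19b alone. The miR-92 group had 0.94 over miR-92a and miR-25, of which 1 of 2 was at least 2-fold higher. With the control features aligned, only miR-17-5p and miR-20a of all these stayed at least 2-fold higher. Within the miR-17 group, the ratios of miR-17-5p and miR-106b, which differ at 3 of 21 shared positions, were 2.77-fold apart (0.67 apart on the log2 scale with the offset of 10). The ratios of miR-20a and miR-93 were 1.25-fold apart. In the miR-92 group the ratios of miR-92a and miR-25 were 1.43-fold apart. In each seed group measured in both clusters, the median over the miR-17-92 members therefore lay above that over the miR-106b-25 members, but the single ratios of miR-20a and miR-93 lay close.

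The miR-92 seed is also carried by miR-32 and miR-92b, which come from other loci. miR-32, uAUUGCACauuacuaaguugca, was listed at 1 in the uninjured artery and at 0.0293 in the injured artery, and miR-92b, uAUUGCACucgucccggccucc, at 1 on both. Both were undetected, as was miR-363, so that the detected signal of this seed lay in miR-92a and miR-25. Of the 13 mature names that carry 1 of the 4 seeds in the RefSeq table, 10 are the members and 3 are these. The other strands of the hairpins were represented by 6 features, miR-17-3p, miR-20a*, miR-20b-3p, miR-106b*, miR-25* and miR-363*. All 6 were listed at 1 and undetected on both arrays, so a guide and its passenger strand could not be compared.

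Across the 7 members the ratio ran inversely with the uninjured signal (Spearman's rho = -0.79 across 7 miRNAs, which share the arrays and are not independent). The ratio contains the uninjured signal, which favours such a sign. For the 151 other miRNAs the same rho was -0.13, and with the mean log2 signal it was -0.68 for the members and -0.0049 for the others. The share at least 2-fold higher was 13.9% in the dimmer 79 of the 158 miRNAs and 11.4% in the brighter 79. The GC content of the 7 mature sequences ran from 39.1% (miR-20a and miR-19b) to 57.1% (miR-92a), with rho = -0.25 against the ratio.

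Mcm7, the host gene of miR-106b-25, belongs to the genes that E2f factors are known to switch on in dividing cells. Its promoter is shown as the sequence that the 3 miRNAs it hosts have in common, with the E2f motif form TTTCGCGC in capitals. Of these 3, 1 was at least 2-fold higher, against 12.7% of all 158 miRNAs. A positive log2 ratio was found for 3 of 3, as for 65.2% of all 158. The window is chr12:22163129-22163428 (GRCr8, minus strand), 250 bases before to 50 after the transcript start used by RefSeq's table of promoters. That start lies downstream of the outermost 5′ end of the gene span given above, so the motif lies inside that span.
Mcm7: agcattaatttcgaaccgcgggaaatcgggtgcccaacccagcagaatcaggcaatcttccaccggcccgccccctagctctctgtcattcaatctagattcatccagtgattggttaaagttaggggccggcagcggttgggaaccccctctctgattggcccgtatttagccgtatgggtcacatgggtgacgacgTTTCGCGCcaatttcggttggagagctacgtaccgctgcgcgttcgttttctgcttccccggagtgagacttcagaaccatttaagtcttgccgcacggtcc
The motif TTTCGCGC occurred 1 time, with its first base at position -52 from that start, and occurred in 0.326% of the 33469 promoter windows of the same length. TTTGGCGC, the other form searched, did not occur in the window, and either form occurred in 0.792% of all windows. The Myc motif CACGTG, held by 6.42% of windows, was not in this window. Both strands were searched, but for no further form of the E2f motif. Other forms may therefore stand in lower case in the window, and the share of windows covers the searched forms only. A match is a run of letters only, and neither Mcm7 mRNA nor binding was measured here.

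The 4 other miRNAs with ratios nearest to the members' median, over these 2 arrays, were miR-15b, miR-379, miR-31 and miR-221. miR-15b, which is made from an intron of the chromosome condensation gene Smc4, had signals of 126 and 298 and a log2 ratio of 1.33. miR-379 had signals of 13.8 and 34.3 (1.40), miR-31 had 252 and 578 (1.28), and miR-221, which is known to repress the cell-cycle inhibitor Cdkn1b, had 78.9 and 206 (1.47). In the list of other miRNAs from cell cycle genes or dividing cells, 6 of the 7 with a ratio were beyond 2-fold on the higher side. The share over all 158 miRNAs was 12.7%. The median log2 ratio of the 7 was 1.28. That list and the lists below were drawn up with results of these arrays known, so their counts are no independent evidence.

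Among miRNAs known to be repressed by Myc, such as the let-7, miR-26, miR-29 and miR-30 families, 23 of 23 on the array were measured on both. On the scale used, none was at least 2-fold higher or lower, against 12.7% and 3.80% of all 158. Of the 23, 13 had a positive log2 ratio (against 65.2% of all 158), and the range was -0.50 to 0.60. Their median was 0.07, against 0.14 for all 158 miRNAs and 1.35 for the members of the miR-17 clusters. With the control features aligned, these medians were -0.52, -0.45 and 0.76. That alignment lowered every ratio by 0.59 and took miR-150, at -0.50 on the scale used, beyond 2-fold lower. Of all 158 miRNAs, 23 were then at least 2-fold lower. miR-150 is also in the leukocyte list below.

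**Figure D4:**
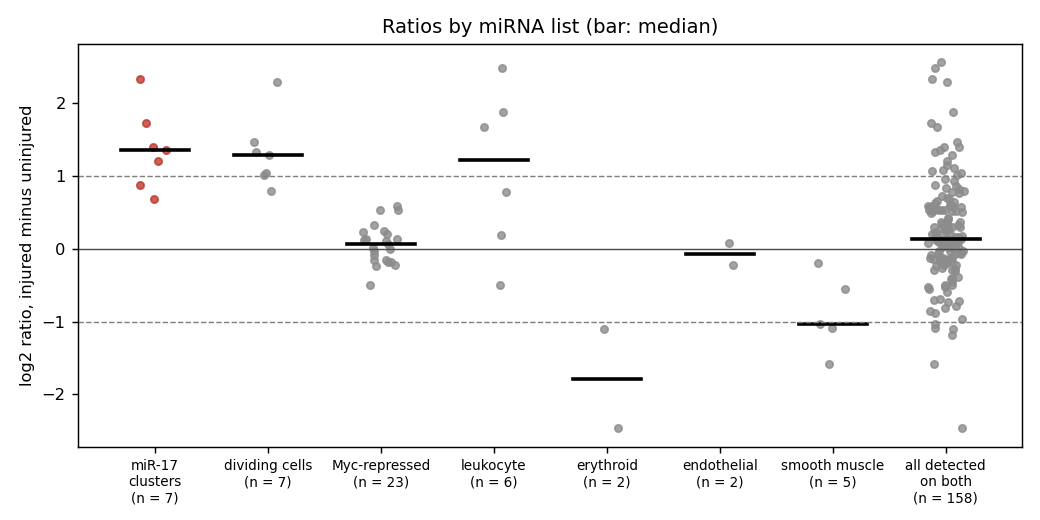
Log2 ratio of each miRNA measured on both arrays, by list, with a bar at each median and dashed lines at 2-fold. The 7 members of the miR-17 clusters lie between 0.69 and 2.34, the 23 Myc-repressed miRNAs between -0.50 and 0.60, and the leukocyte list spans -0.50 to 2.49.

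Markers of other cells also differed between the arrays. All 6 leukocyte miRNAs on the array were measured on both, and 3 of them were at least 2-fold higher, against 12.7% of all 158 miRNAs. The median log2 ratio of the 6 was 1.22 and their summed signal 316 uninjured and 636 injured. Those 3, miR-142-5p, miR-142-3p and miR-223, had log2 ratios of 2.49, 1.88 and 1.67, while miR-150, which marks mature lymphocytes, was at -0.50. The erythroid miR-451 and miR-144 were both at least 2-fold lower (against 3.80% of all 158), with summed signals of 677 and 125. The 5 smooth muscle miRNAs had a median log2 ratio of -1.03 and summed signals of 18169 and 14655. The lowest were the general muscle miRNAs, with miR-133b at -1.03, miR-133a at -1.09 and miR-1 at -1.58, whereas miR-143 was at -0.19 and miR-145 at -0.55. On the scale used, both strands of the endothelial miR-126 hairpin lay near 0, at 0.08 for miR-126 and -0.22 for miR-126*. With the control features aligned, the list medians were 0.63 (leukocyte), -2.38 (erythroid), -1.62 (smooth muscle) and -0.66 (endothelial). Beside these lists, the summed signal of the 10 members of the miR-17 clusters was 371 uninjured and 816 injured.

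Each of the 7 ratios was positive under every scaling that was tried, but the count beyond 2-fold did not hold. miR-17-5p and miR-20a were at least 2-fold higher under every scaling and with the offset, with lowest log2 ratios of 1.49 and 1.14. Without scaling, as in the deposited value table, 5 of 7 were at least 2-fold higher against 10.8% of all 158, and with the offset of 10 the count was 5 against 8.86%. Quantile normalization left 3 of 7 against 7.59%, and alignment at the medians left 2 of 7 against 5.06%. Among miRNAs above the highest undetected signal on both arrays, 4 of 6 members were at least 2-fold higher against 11.9%. The 75th percentile over all miRNAs and the control features each left 2 of 7, miR-17-5p and miR-20a, against 4.43%. With the control features aligned the log2 ratio of miR-93 was 0.81, that of miR-19b 0.76, of miR-92a 0.61, of miR-106b 0.28 and of miR-25 0.10. All 6 control features detected on both arrays were brighter on the injured array, with a median log2 ratio of 0.50 before scaling. Since each scaling but quantile normalization moves every ratio by the same amount, the order of the members does not depend on those scalings.

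**Figure D5:**
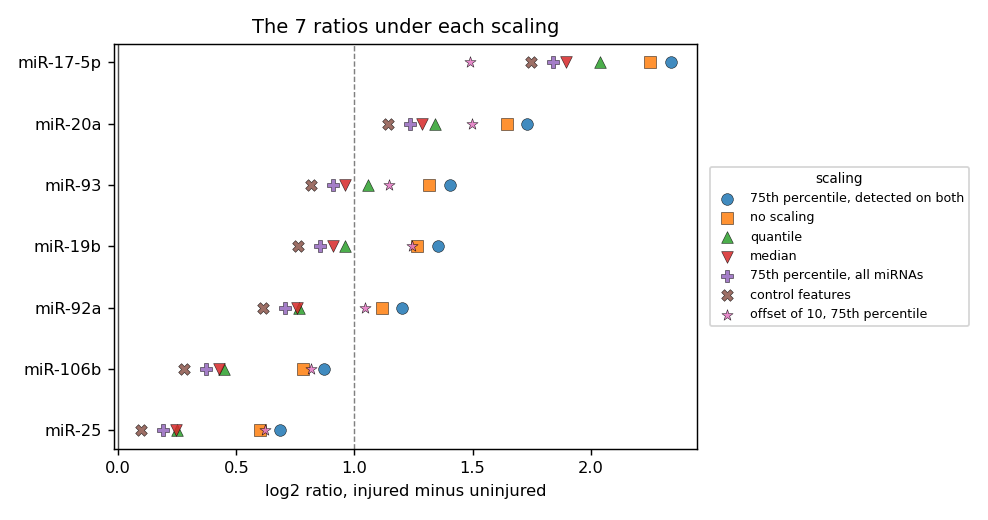
Log2 ratio of each of the 7 miRNAs measured on both arrays under 7 treatments of the signals, with the dashed line at 2-fold. All values lie above 0, from 0.10 for miR-25 with control features aligned to 2.34 for miR-17-5p with the 75th percentile scaling, and miR-17-5p and miR-20a stay above the dashed line throughout.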

How the data were processed

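Total RNA was labelled with Cy3 with an Agilent miRNA reagent, per the labels' protocols. The authors deposited, for each array, 1 signal intensity on a linear scale and 1 flag per feature; the sources used here name no scanner software, background correction or normalization. The deposited value table holds a linear ratio, which for 349 of 349 shared names was the injured intensity over the uninjured one (relative tolerance 1e-05), and served as an alternative. The flag, 0 for each of 7 negative control features, was read as detection. Log2 signals were scaled as described in the report, with Python 3.11.15, numpy 2.4.6 and pandas 2.3.3. The scaling was tested on simulated data without noise, with as many miRNAs raised as lowered. That test cannot show which scaling suits these arrays. The 2-fold line is descriptive, and 1 array per group limits the precision. miRNAs named beyond the 10 are the other strands of their hairpins, those with a shared seed, the 4 nearest in ratio, and list members. The members and lists were chosen with earlier results of these data known. miR-155 and miR-15a were in the lists but are not analysed here. Alternatives were other scalings, an offset of 10, other detection filters and another floor for bounds. Leaving out miR-17-5p, and aligning control features together with the higher floor, were added after the data were seen.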

Additional observations from a re-analysis of the deposited data

How the results depend on the processing

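A value was counted as moved when it changed by over 1.5-fold or crossed 2-fold. The count of members at least 2-fold higher was 5 with the scaling used, 5 without scaling, with the value table and with the offset, 3 with quantile normalization, and 2 with the arrays aligned at their medians, with the control features aligned and with the 75th percentile over all miRNAs. The members' median log2 ratio was 0.96 with quantile normalization, 0.91 with aligned medians, 0.76 with control features aligned and 0.85 with the percentile over all miRNAs, and miR-19b, the one measured member of its seed group, had these same values. With the control features aligned the median was 0.95 for the miR-17-92 cluster, 0.28 for miR-106b-25, 0.98 for the miR-17 seed group and 0.35 for the miR-92 seed group. These settings lowered the ratios of all 158 miRNAs by a median of up to 0.59. No member was at least 2-fold lower under any setting. Without miR-17-5p 4 of 6 members were at least 2-fold higher, with a median of 1.28. With the control features aligned and bounds set against the highest undetected signal, miR-19a was at least 2.83-fold higher and miR-18a had no bound above 1. Signals near the undetected range limit miR-17-5p, miR-18a and miR-19a. No paired analysis was possible because each group held 1 array, and for the same reason no replicate could be left out.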
